A study of Rattus norvegicus with 6 samples.

Results

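DEAD and DEAH box proteins are RNA helicases that use ATP to unwind short RNA duplexes or to strip proteins from RNA, and they take their names from the amino acids of a conserved ATPase motif. In the nucleolus many of them remodel the precursors of the small and the large ribosomal subunit, while others drive the steps of the spliceosome, load export factors on mRNA, open mRNA for translation or sense viral RNA. Growth factors that make cells grow are known to raise ribosome production, and the helicases of the nucleolus belong to that machinery. Here the helicases are the genes whose symbol is Ddx or Dhx followed by a number and at most 1 letter. This gave 49 of the 17327 genes counted, 34 with a Ddx and 15 with a Dhx symbol. Helicases of the same families with other symbols, such as the translation factor Eif4a1, are not among the 49.

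The cells were primary Schwann cells, the glia of peripheral nerves, from sciatic nerves of adult female Wistar rats. The cells had been routinely grown with more serum, forskolin and recombinant soluble NRG1β1, so the mock cells too had met this ligand. All of them were then starved for 18 h without it, in medium with 2% serum and 10 μM forskolin, which activates adenylyl cyclase. They then received for 6 h either 10 nM recombinant soluble NRG1β1 (called NRG1, 3 samples) or the buffer of the ligand alone (called mock, 3 samples). Each of 3 independent cell preparations, called cultures 1, 2 and 3, gave 1 sample of each kind, so the comparison was paired by culture. Cells grown without axons and kept under forskolin are a model of differentiated Schwann cells, not the cells of a nerve.

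Counts on genes summed to between 6821590 and 15475018 per sample, and a floor of 3 counts was between 0.194 and 0.44 CPM (counts per gene after scaling for depth). All 10 Schwann cell markers examined, among them Sox10, were counted in every sample. Culture 1 stood apart from the others in both of its samples. Pdgfra, a fibroblast marker, was at 870.1 CPM in its mock and 827.2 CPM in its NRG1 sample, and at no more than 1.61 CPM in the 4 samples of cultures 2 and 3. The summed level of the 7 fibroblast markers was 53425 and 57718 CPM in culture 1 and between 13693 and 22332 CPM elsewhere, so it was high in both samples of culture 1. In cultures 2 and 3 the sum was mostly Col1a1, at 13413 to 21494 CPM, with Dcn, Lum and Thy1 at 0. The summed Schwann cell markers were lowest in that culture, at 7171 CPM in mock and 5148 CPM in NRG1, and between 13517 and 18701 CPM elsewhere, and 6 of the 10 fell with NRG1. The summed macrophage markers stayed at or under 4.58 CPM, with Ptprc, C1qa and C1qb at 0 in all samples. The summed endothelial markers lay between 6.53 and 15.2 CPM, mostly from Tek, with Pecam1 and Cdh5 at 0. The summed neuron markers lay between 1553 and 5794.5 CPM, mostly from Nefl, with Rbfox3 at 0. The part of fibroblasts in the values below was not tested, and the calls without culture 1 are given beside them.

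In all, 6 helicases passed the test for a difference between NRG1 and mock. The promoters of these genes and of Ddx50, a paralogue of Ddx21, are shown because the members that moved can be compared there with one that did not pass. They are RefSeq sequences of the rat GRCr8 assembly, which is not the rn5 build used for counting, and each shows 100 bases upstream of the annotated start, 5′ to 3′ on the strand of the gene. Those of Dhx40 begin 150 bases before the start, and the others end just before it. Capitals mark CCGGAAG or its reverse complement CTTCCGG, the core that ETS family factors recognise, and CACGTG, the E-box bound by Myc and related factors.
Ddx21 (chr20:31097239-31097338, minus strand): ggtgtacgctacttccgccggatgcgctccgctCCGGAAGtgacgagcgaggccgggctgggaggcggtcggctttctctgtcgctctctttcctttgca
Ddx50 (chr20:31133653-31133752, minus strand): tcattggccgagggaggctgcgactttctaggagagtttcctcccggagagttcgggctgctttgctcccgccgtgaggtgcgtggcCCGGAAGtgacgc
Ddx39a (chr19:41331414-41331513, minus strand): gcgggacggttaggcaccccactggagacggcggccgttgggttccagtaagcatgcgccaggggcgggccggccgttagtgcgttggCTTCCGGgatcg
Ddx27 (chr3:176163120-176163219, plus strand): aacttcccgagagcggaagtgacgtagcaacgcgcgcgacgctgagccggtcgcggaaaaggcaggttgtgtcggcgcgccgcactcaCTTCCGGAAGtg
Ddx18 (chr13:35295973-35296072, minus strand): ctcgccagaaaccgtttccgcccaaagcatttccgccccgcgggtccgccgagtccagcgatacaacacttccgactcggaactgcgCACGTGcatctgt
Dhx37 (chr12:36856038-36856137, plus strand): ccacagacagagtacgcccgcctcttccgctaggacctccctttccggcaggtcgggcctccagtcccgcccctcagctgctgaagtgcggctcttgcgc
Dhx40 (chr10:72118843-72118942, minus strand): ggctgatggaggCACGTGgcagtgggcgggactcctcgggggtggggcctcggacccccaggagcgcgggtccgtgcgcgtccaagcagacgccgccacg

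Of the 49 helicases, 46 were counted highly enough to be tested. In the paired comparison 5 of them rose with NRG1 and 1 fell. These words are used for an adjusted p of 0.01 or less in edgeR's quasi-likelihood test, with Benjamini-Hochberg adjustment over 9740 genes, and SE is the standard error of a log2 fold change. Of all genes tested, 6.31% rose and 5.51% fell by the same rule, against 10.9% and 2.17% of the helicases tested. Ddx21, Ddx39a, Ddx27, Ddx18 and Dhx37 rose, and Dhx40 fell. By the study's stricter rule, which also asks for an absolute log2 fold change over 1, Ddx21 alone passed upwards, against 1.56% of all genes. It did not pass when the fold threshold was put inside the test, where 0 helicases had even an unadjusted p under 0.05. No helicase passed it downwards in edgeR or DESeq2, against 1.91% of all genes, and 0 had both that fold and an unadjusted p under 0.05. When the limit on the adjusted p was 0.05, 13 rose and 3 fell, where 11.5% and 11.7% of all genes did. At an unadjusted p under 0.05, the threshold used beside the role lists below, 19 were higher and 4 lower, and 17% and 18.7% of all genes were. Of the 46 log2 fold changes 35 were above 0, against 47.2% of all genes, and the median was 0.20 against -0.03.

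Ddx21, a nucleolar helicase that links the transcription of rRNA to its processing, changed most. It was counted at 48.8, 58.4 and 45.1 CPM in the mock libraries of cultures 1, 2 and 3, and at 102.1, 139.4 and 90.96 CPM in their NRG1 libraries. Every NRG1 value was above every mock value. In bulk RNA a lower level from fewer cells of a type and from less RNA per cell cannot be told apart, and this holds for all values below. The rise was 2.16-fold, a log2 fold change of 1.11 (SE 0.12, adjusted p = 2.6e-05 by edgeR), and by p-value Ddx21 was number 69 of the genes tested.

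Ddx39a, a paralogue of the mRNA export helicase Ddx39b, followed. Its mock samples had 38.5, 57.7 and 69.4 CPM and its NRG1 samples 77.7, 124.6 and 122.6 CPM. The groups did not overlap, although the NRG1 sample of culture 1 was only slightly above the mock sample of culture 3. The log2 fold change of 0.98 (SE 0.12, adjusted p = 7.9e-05 by edgeR) was just under the study's fold threshold, which it passed without replicate 3, where 2 helicases rather than 1 did. The gene model of Ddx39a overlaps that of Adgre5, an adhesion receptor, in GRCr8. Adgre5 also rose, with a log2 fold change of 1.04 (SE 0.13, adjusted p = 6.6e-05 by edgeR). The library kit does not mark strand. The counting put between 0.12% and 0.175% of alignments aside as ambiguous between gene models, and how the models of these genes overlap in rn5 was not examined here.

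The other 3 that rose act in the assembly of the ribosome. Ddx27, needed to process the 3′ end of large subunit rRNA, went from 51.98, 59.9 and 60.4 CPM in mock to 82.5, 95.8 and 89.7 CPM in NRG1 samples. Its 3 cultures moved almost alike, by log2 ratios of 0.66, 0.67 and 0.57. Ddx18, the counterpart of yeast Has1, went from 38.7, 44.2 and 40.9 CPM to 53.6, 78.3 and 59.9 CPM, with the strongest rise in culture 2. Dhx37, which releases the U3 snoRNA from the small subunit precursor, went from 33.8, 44.98 and 42.9 CPM to 50.4, 65.2 and 65.8 CPM. In all 3 genes the groups were apart. The rises were 1.55-fold for Ddx27 (log2 fold change 0.64, SE 0.12, adjusted p = 0.0016 by edgeR), 1.53-fold for Ddx18 (0.61, SE 0.13, adjusted p = 0.0035) and 1.49-fold for Dhx37 (0.58, SE 0.12, adjusted p = 0.004).

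Dhx40, a DEAH box protein with a less well known role, was the helicase that fell. It had 117.0, 108.9 and 95.3 CPM in mock and 76.5, 59.0 and 60.9 CPM in NRG1 samples, so the groups did not overlap. The level in NRG1 samples was 1.64-fold lower (log2 fold change -0.71, SE 0.12, adjusted p = 0.00076 by edgeR). The fall was present in each culture, with log2 ratios of -0.61, -0.88 and -0.64.

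**Figure D1:**
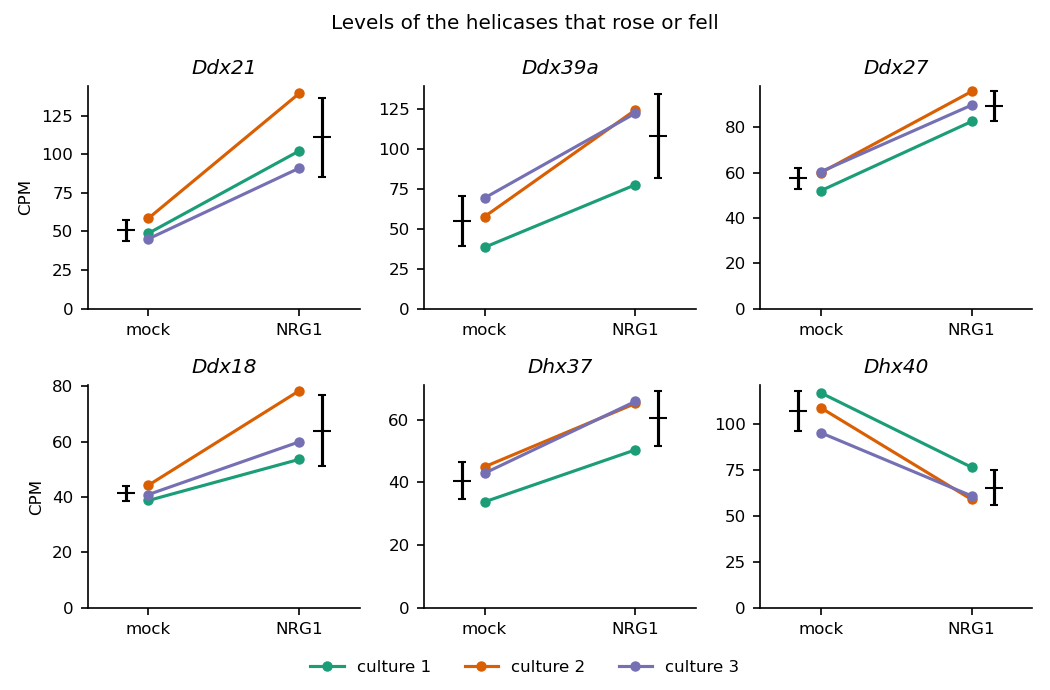
Levels in CPM (linear axes from 0) of the 6 helicases that passed the test, in mock and NRG1 samples. Lines join the 2 samples of a culture, and the black marks beside them are the mean and SD of the 3 samples. All lines of Ddx21, Ddx39a, Ddx27, Ddx18 and Dhx37 go up and all lines of Dhx40 go down.

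The calls of Ddx21, Ddx39a, Ddx27 and Dhx40 held whichever culture was left out. Without culture 1, the one with the highest summed fibroblast markers, 4 helicases rose, 3 of them of ribosome biogenesis, and Dhx37 was no longer called. Without culture 3, the deepest one, 3 rose, 2 of them of ribosome biogenesis, and Ddx18 and Dhx37 were no longer called. In the fits that each left out 1 culture the log2 fold change lay between 0.52 and 0.69 for Ddx18 and between 0.58 and 0.60 for Dhx37. When the 6 samples were fitted as unpaired no helicase passed, and the adjusted p of Ddx21 was 0.16. That fit had 8 helicases up and 1 down at an unadjusted p under 0.05.

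By role, ribosome biogenesis held 4 of the 5 helicases that rose. All 16 helicases of this role were tested, so 25% of them rose, against 6.31% of all genes. The log2 fold change was above 0 in 15, against 47.2% of all genes, and the median was 0.41. None fell in edgeR or DESeq2. At an unadjusted p under 0.05 in edgeR 11 were higher and 1, Ddx50, was lower, against 17% and 18.7% of all genes. Another 5 had an adjusted p under 0.05 without reaching 0.01. At that limit 9 of the 16 rose, where 11.5% of all genes did. Ddx31 came closest, from 18.3, 22.8 and 21.7 CPM in mock to 26.4, 37.2 and 28.98 CPM in NRG1 samples, with groups apart and a log2 fold change of 0.55 (SE 0.14, adjusted p = 0.012 by edgeR). Ddx56, Ddx54, Ddx51 and Ddx49 had log2 fold changes of 0.49, 0.43, 0.42 and 0.39, with adjusted p-values from edgeR of 0.031, 0.017, 0.035 and 0.025. These proteins serve large or, for Ddx49, small subunit assembly. The gene model of Ddx51 overlaps that of Noc4l, which rose by 0.60 on the log2 scale (SE 0.14, adjusted p = 0.0082 by edgeR). The remaining 6 with a positive change, Dhx33, Ddx10, Ddx24, Ddx52, Ddx55 and Ddx47, had log2 fold changes between 0.05 and 0.35 and adjusted p-values from edgeR of at least 0.10. Ddx24, which took the most reads of this role list (counts here are not corrected for gene length), had 91.7, 114.7 and 128.0 CPM in mock and 106.3, 143.9 and 140.6 CPM in NRG1 samples, which overlapped.

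**Figure D2:**
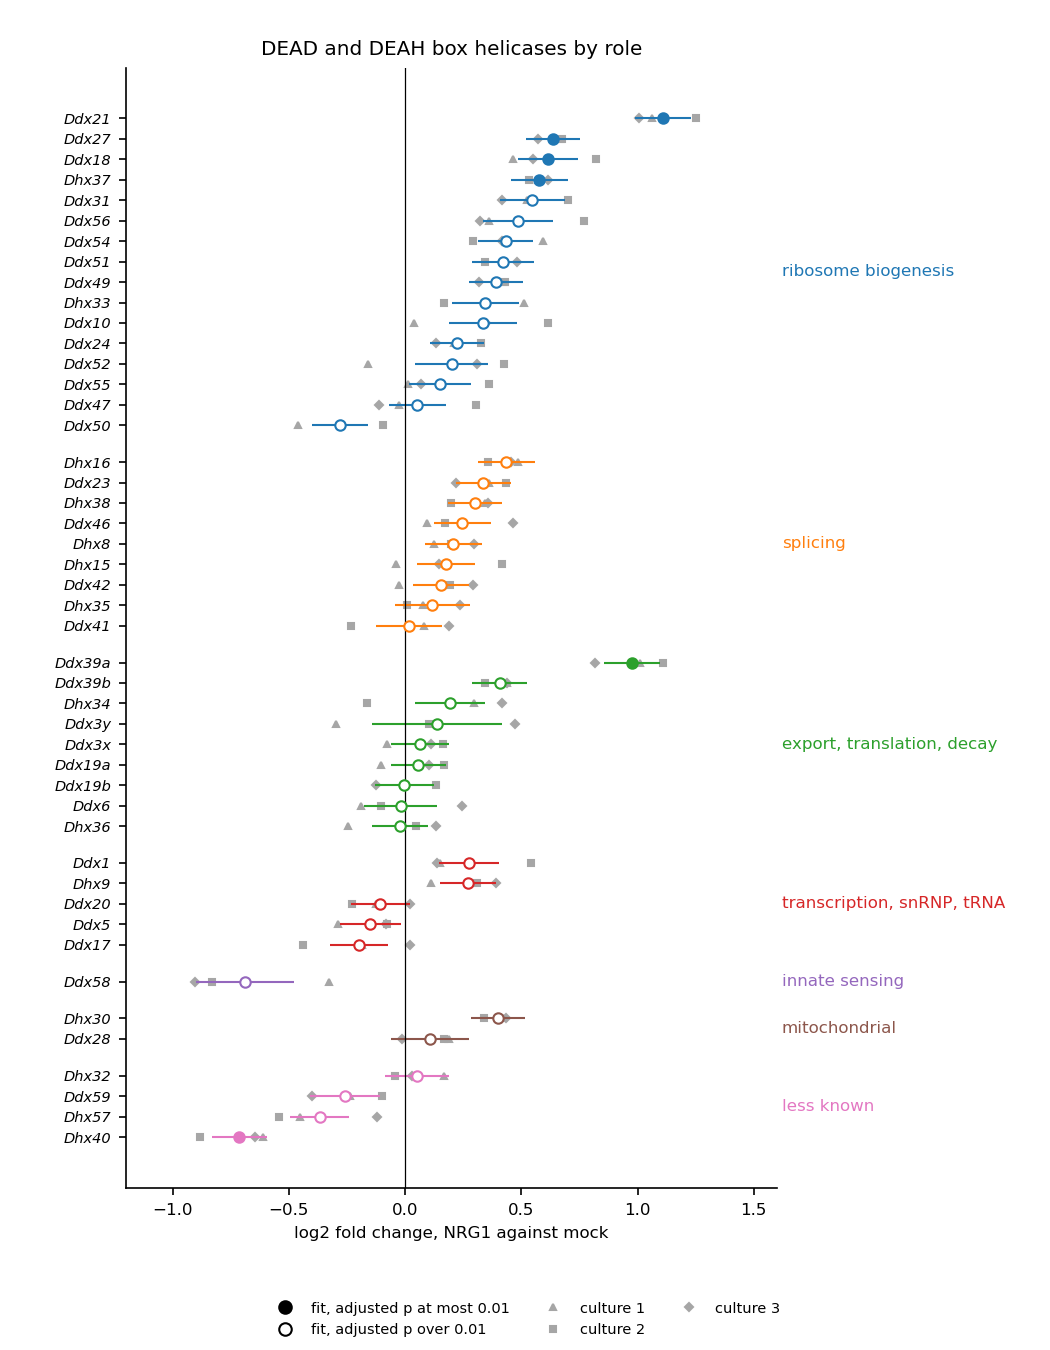
Log2 fold change of NRG1 against mock for the 46 helicases tested, grouped by role. Circles are the paired fit with its standard error, filled where the adjusted p was 0.01 or less, and grey symbols are the log2 ratios within single cultures. Filled circles stand for Ddx21, Ddx27, Ddx18, Dhx37, Ddx39a and Dhx40, and 15 of the 16 ribosome biogenesis helicases lie to the right of 0. Of all genes tested, 47.2% had a log2 fold change above 0.

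The other proteins of ribosome biogenesis were counted beside them from a list of 86 factors without a helicase symbol, of which 76 were in the files and 73 were tested. Of these 73, 38 rose, or 52.1%, against 6.31% of all genes. Every log2 fold change was above 0, and the median was 0.56. None fell in edgeR or DESeq2, and 0 were lower at an unadjusted p under 0.05. Fbl, the rRNA methyltransferase of the nucleolus, rose by 1.56 on the log2 scale (SE 0.15, adjusted p = 1e-05 by edgeR). Wdr46, a protein of small subunit assembly, rose by 1.25 (SE 0.13, adjusted p = 2e-05). Nop56, a core protein of box C/D snoRNPs, rose by 1.17 and Nat10, the rRNA acetyltransferase, by 1.16. Ddx21 thus lay within the range of these factors, while the median of the 16 helicases was below theirs. Without culture 1 the number that rose was 38 as well, but only 32 of these were among the 38 of the full fit. Without culture 2 or culture 3 it was 29, of which 28 and 29 were among them. This list was chosen with earlier results of these data known. The study itself names Fbl, Wdr46, Nop56, Nat10 and Ddx21 among its up-regulated genes of rRNA metabolism. Among helicases with other symbols, 10 of 14 listed were tested and none passed in edgeR, with a median log2 fold change of 0.20. Eif4a1, which opens the start of mRNAs for translation, came closest with 0.54 (SE 0.14, adjusted p = 0.011 by edgeR). At an unadjusted p under 0.05, 3 of the 10 were higher and 0 lower, against 17% and 18.7% of all genes, and DESeq2 called 1 higher. The 30 tested Ddx and Dhx helicases outside ribosome biogenesis held 1 that rose (3.33%) and 1 that fell, against 6.31% and 5.51% of all genes. Their median log2 fold change was 0.11.

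**Figure D3:**
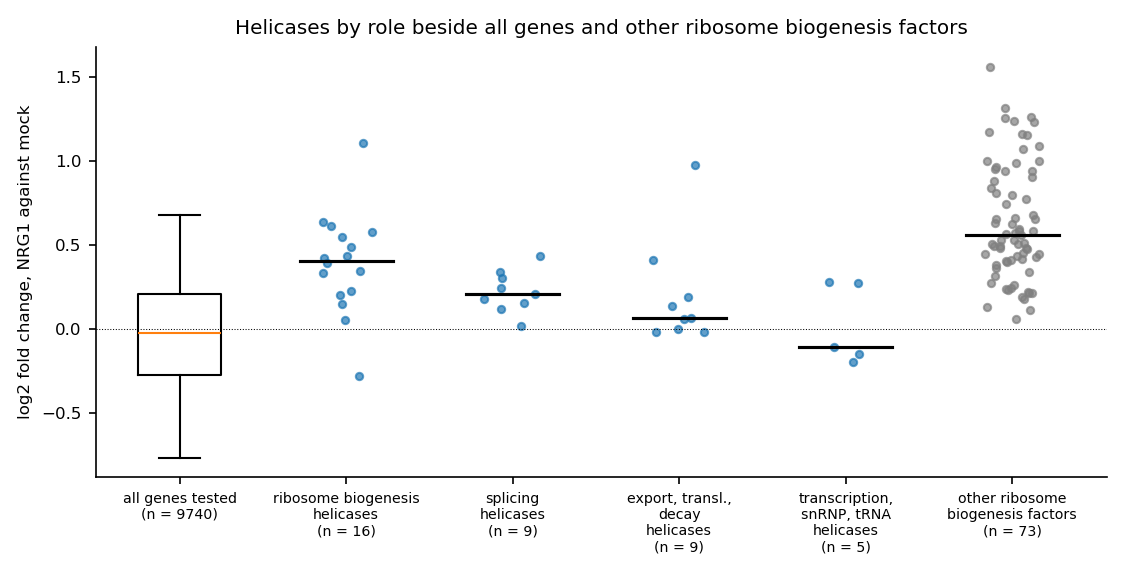
Log2 fold change of NRG1 against mock for helicases of 4 roles (blue points, 1 per gene, horizontal line at the median) beside all 9740 genes tested (box from the lower to the upper quartile, whiskers from the 5th to the 95th percentile) and 73 other ribosome biogenesis factors (grey). The medians were 0.41 for ribosome biogenesis helicases, 0.21 for splicing helicases and -0.03 for all genes.

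Spliceosomal helicases had small changes, and none of the 9 passed in edgeR or DESeq2. At an unadjusted p under 0.05, 3 were higher and 0 lower in edgeR, against 17% and 18.7% of all genes. All 9 had log2 fold changes above 0, between 0.02 and 0.44, where 47.2% of all genes had one above 0. Dhx16, which activates the assembled spliceosome, had the smallest adjusted p, with 38.6, 44.4 and 47.7 CPM in mock and 54.1, 56.98 and 65.5 CPM in NRG1 samples. Its groups did not overlap, and its log2 fold change was 0.44 (SE 0.12, adjusted p = 0.019 by edgeR). Ddx46, which acts at the branch site, was also higher in every NRG1 than in every mock sample, from 174.5 to 190.8 CPM in mock and from 203.8 to 240.9 CPM in NRG1 samples, but with a log2 fold change of 0.25 and an adjusted p of 0.17 by edgeR. Dhx15, which takes spent spliceosomes apart and also serves the ribosome, took the most reads of the role list. Its groups overlapped, with 175.3 CPM in NRG1 sample 1 and 180.0 CPM in its mock partner. Among 16 tested proteins with a G-patch, the domain that activates DEAH box helicases, 3 rose, or 18.8%, against 6.31% of all genes. None of them fell in edgeR or DESeq2, and 0 were lower at an unadjusted p under 0.05. Gpatch4 rose by 1.30 (SE 0.16, adjusted p = 8.5e-05 by edgeR) and Gpkow, a partner of Dhx16, by 0.73 (SE 0.12, adjusted p = 0.00072). Pinx1 rose by 0.73 (SE 0.15, adjusted p = 0.0037 by edgeR). The other 13 did not pass, among them Rbm5, Rbm10, Rbm17, Sugp1 and Tfip11, and the median log2 fold change of the 16 was 0.12.

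Of the helicases of mRNA export, translation and decay, 9 were tested. Ddx39a alone passed in edgeR, so 11.1% of the 9 rose, against 6.31% of all genes. DESeq2 called 2 of the 9, Ddx39a and Ddx39b. Ddx3x, which helps the translation of structured mRNAs, was the most counted of them, with 855.3, 718.3 and 595.0 CPM in mock and 809.5, 805.4 and 642.8 CPM in NRG1 samples. Its log2 fold change of 0.07 had an SE of 0.13. Ddx6, which represses translation in P bodies, had the widest spread among mock samples of all helicases tested, with 27.5, 21.6 and 10.3 CPM in cultures 1, 2 and 3. Its NRG1 samples had 24.1, 20.1 and 12.3 CPM, so cultures lay further apart than the samples of a pair, and the log2 fold change was -0.02 (SE 0.16). Dhx36, which unwinds G-quadruplexes, had a log2 fold change of -0.02, Dhx34, a factor of nonsense-mediated decay, of 0.19, and neither passed.

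The helicases that serve transcription, small nuclear RNPs and tRNA did not pass in either direction, in edgeR or DESeq2, and 2 of the 5 were higher and 0 lower at an unadjusted p under 0.05 in edgeR, against 17% and 18.7% of all genes. Ddx5, a transcriptional coregulator, took the most reads of all helicases, with 1501, 1422 and 1250.0 CPM in mock and 1229, 1348 and 1183 CPM in NRG1 samples. Each NRG1 sample was below its mock partner, but the groups overlapped and the log2 fold change of -0.15 had an SE of 0.13. Ddx17 had -0.20 (SE 0.13) and Ddx20, of the SMN complex, -0.11 (SE 0.13). Ddx1, a part of the tRNA ligase complex, and Dhx9, which acts in transcription and RNA processing, were higher in all 3 cultures by log2 fold changes of 0.28 and 0.27 and had adjusted p-values from edgeR of 0.14 and 0.12. Neither helicase of the mitochondrial ribosome passed in edgeR or DESeq2. At an unadjusted p under 0.05 in edgeR 1 of these 2 was higher, where 17% of all genes were. Dhx30 had 94.9, 118.2 and 127.1 CPM in mock and 127.3, 149.8 and 171.7 CPM in NRG1 samples (log2 fold change 0.40, SE 0.11, adjusted p = 0.022 by edgeR), and Ddx28 had a log2 fold change of 0.11 (SE 0.17).

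On the low side, next to Dhx40, were Ddx58 and Dhx57. Ddx58 encodes RIG-I, the cytosolic sensor of viral RNA, and had 14.4, 6.95 and 9.22 CPM in mock and 11.5, 3.82 and 4.84 CPM in NRG1 samples. It was lower in each culture and did not pass, with a log2 fold change of -0.69 (SE 0.21, adjusted p = 0.029 by edgeR). Of 19 interferon-stimulated genes listed beside it, 11 were tested and 2 fell, where 5.51% of all genes did. The median log2 fold change of the 11 was -0.50. Stat2, a transcription factor of interferon signalling, fell by 0.92 on the log2 scale (SE 0.19, adjusted p = 0.0031 by edgeR). None rose in edgeR or DESeq2, and 0 were higher and 7 lower at an unadjusted p under 0.05 in edgeR, against 17% and 18.7% of all genes. Of the 19, 8, among them Ifit1, Mx1 and Rsad2, stayed under 1 CPM in every sample. Dhx57, a helicase of less known role, had a log2 fold change of -0.37 (SE 0.13, adjusted p = 0.048 by edgeR). Ddx59 was lower in every NRG1 than in every mock sample, from 20.1 to 22.3 CPM in mock and from 16.8 to 18.8 CPM in NRG1 samples, with an adjusted p of 0.24 by edgeR, and Dhx32 had a log2 fold change of 0.05.

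Only 3 helicases were too low to be tested. Ddx4, the germ cell helicase known as Vasa, had 0 counts in all 6 samples, where a floor of 3 counts allows levels of up to 0.194 to 0.44 CPM. Ddx25, another germ cell helicase, had 2, 3 and 4 counts in mock and 2, 7 and 6 counts in NRG1 samples. Dhx58, the RIG-I relative LGP2, had 6, 3 and 5 counts in mock and 3, 4 and 13 in NRG1 samples. All 3 were thus under 1 CPM in every sample. Ddx3y, whose gene is on the Y chromosome, passed the filter with between 19 and 64 counts, although the methods of the study name female rats. Its counts were between 0.377% and 0.643% of those of its X-linked paralogue Ddx3x in the 6 samples. Whether they are reads of Ddx3x was not tested.

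Paralogues were compared by their ratio within a sample, so that the gene's length does not matter to the change. Ddx21 and Ddx50 are close paralogues and direct neighbours on chromosome 20 in GRCr8, and Ddx50 too is a nucleolar protein. Ddx50 had 113.3, 79.9 and 76.7 CPM in mock and 82.3, 74.7 and 63.3 CPM in NRG1 samples, with a log2 fold change of -0.28 (SE 0.12, adjusted p = 0.11 by edgeR). The log2 ratio of Ddx21 to Ddx50 was higher with NRG1 by 1.53, 1.35 and 1.29 in cultures 1, 2 and 3, a mean of 1.39 ± 0.13 (SD, n = 3). For 3 pairs an exact permutation test, two-sided, cannot go below p = 0.25, the value it gave.

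Ddx39a and Ddx39b were both higher with NRG1 in every culture. Ddx39b had 320.9, 364.6 and 438.5 CPM in mock and 435.1, 463.4 and 593.6 CPM in NRG1 samples (log2 fold change 0.41, SE 0.12, adjusted p = 0.024 by edgeR). With DESeq2 and the same block its adjusted p was 0.0089, which passed. The log2 ratio of Ddx39a to Ddx39b was also higher in every culture, by a mean of 0.57 ± 0.19 (SD, n = 3), again with the smallest exact permutation p of 0.25. In the remaining pairs the mean difference of the log2 ratio was smaller than its SD. It was 0.05 ± 0.27 (SD, n = 3) for Ddx5 to Ddx17, 0.05 ± 0.17 for Ddx19a to Ddx19b, a pair of mRNA export helicases at the nuclear pore, and -0.03 ± 0.32 for Ddx3x to Ddx3y, with both signs among the cultures of each. Reads that fit both members of a pair equally well were set aside by the counting as not unique, so the levels of paralogues are less certain than those of other genes.

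**Figure D4:**
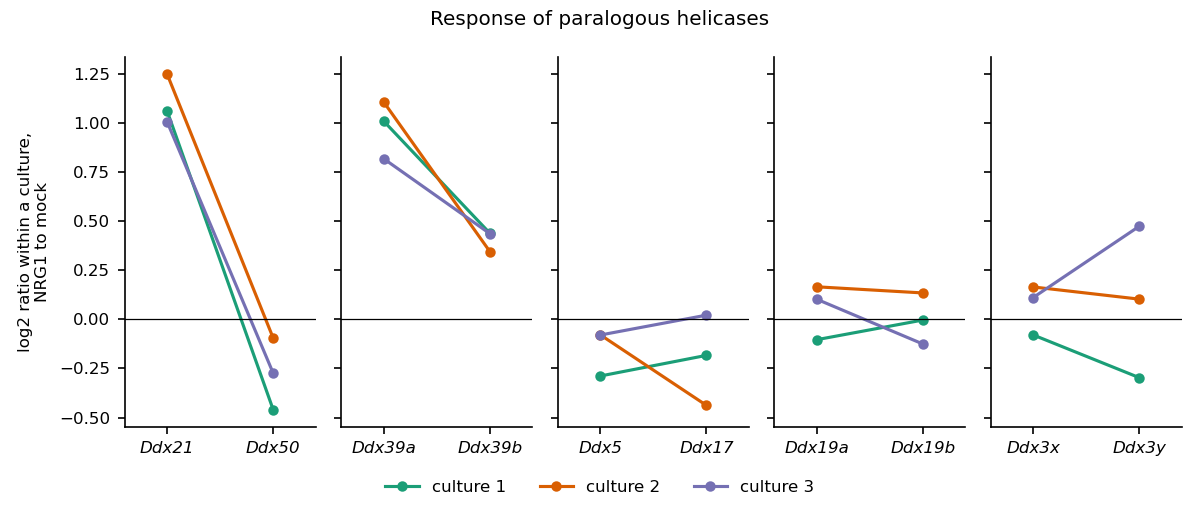
Log2 ratio of NRG1 to mock within each culture for 5 pairs of paralogous helicases, with lines joining the 2 genes of a pair in the same culture. For Ddx21 and Ddx50 the ratios lie above 1.007 for the former and below 0 for the latter in all cultures, while the lines of the last 3 pairs run in both directions.

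The 49 helicases held 0.568%, 0.592% and 0.586% of the gene counts in the mock libraries of cultures 1, 2 and 3, and 0.57%, 0.686% and 0.651% in their NRG1 libraries. The Wilson 95% intervals of the samples of culture 1 overlapped, from 0.562% to 0.573% in mock and from 0.565% to 0.575% in NRG1, and those of cultures 2 and 3 did not overlap between mock and NRG1. These intervals cover counting error only. Ddx5 and Ddx3x together made between 28.1% and 40.4% of these counts, so the sum says little of the less counted members. Over the 46 tested helicases the median log2 ratio was 0.10 in culture 1, 0.20 in culture 2 and 0.27 in culture 3.

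In most helicases the cultures differed among themselves by more than the treatment. The median range of a helicase over the 3 mock samples was 0.41 on the log2 CPM scale, from 0.05 for Dhx32 to 1.40 for Ddx6, and over all genes tested it was 0.51. For 15 of the 46 helicases, 32.6%, the change with NRG1 exceeded that range, and for all genes the share was 23.2%. Mock sample 1 was the lowest of the mock samples in 27 helicases, 58.7%, and in 41.9% of all genes. In 11 helicases every NRG1 sample was above every mock sample and in 2 every one was below, or 23.9% and 4.35% of them, against 10.2% and 9.94% of all genes. Within pairs, 24 helicases were higher in all 3 cultures and 6 lower in all 3, and 25.9% and 30% of all genes were.

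The promoters of the helicases, from 250 bases before to 50 after the start, were searched on both strands. RefSeq held one for 44 of the 49 genes, after matching 48 by symbol and Ddx58 by a synonym. CCGGAAG was present in 19 of the 44, or 43.2%, and in 19.9% of the 7961 promoters of genes tested and 9.63% of all 27457 genes with a promoter in the table. Among the ribosome biogenesis helicases it was in 10 of 14, and among the other ribosome biogenesis factors in 37 of 67. It was in 4 of the 5 genes that rose, starting 67 bases before the start in Ddx21, 12 before it in Ddx39a and Ddx27, and 9 bases after it in Dhx37. Of the 37 tested helicases with a promoter that did not rise, 15 held it, or 40.5%. The promoter of Ddx50 holds it as well, 13 bases before the start, as printed above. CACGTG was in 7 of the 44, or 15.9%, against 10.1% of the promoters of genes tested and 7.08% of all. Of the ribosome biogenesis helicases 2 of 14 held it, and of the other ribosome biogenesis factors 34.3%. It lies 13 bases before the start of Ddx18 and 138 before that of Dhx40, which moved in opposite directions. TATAAA was in the promoter of 1 helicase, Ddx17, against 6.33% of those of genes tested and 15.3% of all. CCGGAAG and its reverse complement overlap each other in Ddx27, where both are read from the same 10 bases.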

How the data were processed

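RNA was sequenced from 3 mock and 3 NRG1 stimulated samples. The deposited values are raw counts per gene, made by the authors with htseq on RefSeq models after alignment to rn5 by TopHat 2.0.10. Between 47.0% and 49.9% of the alignments were on genes and 24.5% to 29.9% not unique, and summary lines of htseq stayed out of all tests. Groups and numbers came from the sample titles. Genes were filtered with filterByExpr of edgeR 4.0.16 (minimum count 10), scaled by TMM and tested by quasi-likelihood with a block for replicate number. CPM use the TMM scaling. The numbers mark 3 independent experiments, and across genes deviations of same-numbered samples correlated with r of 0.67 to 0.91. Between cultures 2 and 3, samples of unlike number also correlated, with r of 0.51. Unlike numbers that involved culture 1 had r of -0.80 to -0.71. No pair of libraries agreed within sampling noise (chi-square per degree of freedom of 21.4 or more). The SE of a log2 fold change is its size over the root of F. Log2 ratios within cultures used a prior count of 2. On simulated counts of 9740 genes for this comparison, 101 of 109 genes changed by 1 (log2) and 91 of 91 changed by 2 were recovered, with 4 false calls. The changed genes were picked among well counted ones. Smaller changes, such as those of Dhx37 and Dhx40, were not simulated, so their recovery is not known. The members and lists were chosen with earlier results of these data known. Named were helicases past the fold threshold, those that fell, the most significant and most counted of each role, the listed paralogues and sensors, and those near 0. Ddx27, Ddx18, Dhx37 and the other members named beyond that rule were chosen after their values were seen. Alternatives were fits with no block, DESeq2 1.42.0, RLE, other filters, robust empirical Bayes, an adjusted p of 0.05, thinned counts, a fold threshold inside the test and each replicate left out. Protein sequences were not used here. Values of some single genes of the lists are not reported here.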

Additional observations from a re-analysis of the deposited data

How the results depend on the processing

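The replicate block mattered most. With no replicate block, edgeR called 0 helicases in either direction, 0 past the fold threshold, 0 of the ribosome biogenesis helicases and 0 of the other ribosome biogenesis factors, with 8 helicases higher and 1 lower, 1 past the fold threshold, 6 and 50 at an unadjusted p under 0.05. With an adjusted p of at most 0.05, 13 helicases rose, 3 fell and 9 of the ribosome biogenesis helicases rose. With the fold threshold inside the test, 0 helicases passed, and 0 had an unadjusted p under 0.05. Leaving out each replicate in turn gave 3 to 6 helicases that rose, 1 in each fit that fell, 1 to 2 past the fold threshold, 2 to 5 ribosome biogenesis helicases and 29 to 38 other ribosome biogenesis factors that rose. DESeq2, RLE, both other filters, robust empirical Bayes and thinned counts gave 5 or 6 helicases that rose and 1 that fell, and all of them held the 5 that rose and the 1 that fell in the fit reported. Of 286 values of 26 single helicases under the alternatives, 257 kept their direction and side of the threshold, 14 passed it newly, 9 fell short and 6 changed sign, none of them in a helicase that passed. The log2 fold change of Ddx19b, -0.0025 in the fit reported, was 0.0069 with DESeq2, 0.0057 with RLE, 0.066 with thinned counts and between -0.069 and 0.0895 with a replicate left out, above 0 without replicate 1 (0.0013) and without replicate 3. That of Ddx3y, 0.14, lay between -0.0905 and 0.35, below 0 without replicate 3. The cause of these shifts was not tested. Under the other scalings the median of all genes moved by less than 0.01 (log2). Depth limits the members near 0, and 3 pairs limit the exact tests.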
